A study of Saccharomyces cerevisiae with 6 samples.

Results

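The genes described here are the 36 yeast genes of sulfate assimilation and of methionine and cysteine metabolism, chosen by name from the platform annotation among the 5650 named genes on the array. They were picked by name and by no measured value, but the list was drawn up with earlier results of these data known. All 36 were found, each with 1 probe, and no filter on low values was applied. Transcripts were measured in W303-1A, a haploid laboratory strain of mating type MATa, in cultures without ethanol and in cultures with 6.5% (v/v) ethanol, 3 of each. All 6 cultures carried the mutant alleles ade2-1, can1-100, his3-11, 15, leu2-3, 122, trp1-1 and ura3-1, and none of these lies in a gene described here. They grew at 30 °C with shaking at 110 rpm in YEPD, a rich medium with glucose and bactopeptone at 20 g/l each and yeast extract at 10 g/l, and had been inoculated from a parent culture that was unstressed and late in exponential growth. How long the cells had been in ethanol is not given in the sources used here. Each culture had its own array, shared with a reference pool made from the RNA of the 3 ethanol-free cultures, and on the array of culture 1 of each group the dyes of culture and pool were exchanged (dye-swapped).

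Yeast takes up sulfate, activates it with ATP to the nucleotide PAPS, reduces it to sulfide and joins the sulfide to a carbon chain made from aspartate, which gives homocysteine. Homocysteine is methylated to methionine, and methionine is activated to S-adenosylmethionine, the methyl donor of most methylations, which returns to homocysteine after its methyl group is used. Transsulfuration links homocysteine and cysteine through cystathionine in both directions. The activator Met4, brought to its promoters by Cbf1, Met31 and Met32 with the help of Met28, drives most of these genes. The ubiquitin ligase subunit Met30 shuts Met4 off when sulfur amino acids are plentiful, as they are in a medium of peptone and yeast extract.

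Values are log2 ratios of a culture over the pool, so that 0 means equal to the pool and 1 means a 2-fold higher ratio. They give no transcript level, so genes were not compared by level and the mating type of the strain was not checked against its markers. A change is the 6.5% minus the 0% cultures from limma, with its SE (n = 3 arrays per group, which limits the precision). It is called when the two-sided p, adjusted over all 6345 features of the table by the Benjamini-Hochberg method, is below 0.05. All signs rest on reading the deposited ratios as red over green, the usual order, which no label states. With green over red every direction below would be opposite. In whole cultures, a smaller share of cells with a transcript and less of it in each cell cannot be told apart.

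The arrays differed in ways that touch these genes. After the swapped arrays were turned, 6.5% culture 1 correlated with 6.5% cultures 2 and 3 over all probes at only −0.06 and −0.10 (Pearson's r, with probes that are not independent), against 0.85 between the latter. The 0% arrays, on which a culture was set against a pool that held its own RNA, correlated at 0.67 between cultures 2 and 3 and at −0.38 and −0.44 with culture 1. A term for dye orientation was part of the fit. It was called for 11 of the 36 genes (30.6%), beside 34% of all features, and was larger in size than the ethanol change for 10 of the 36. Orientation entered the fit as −1 or 1, so the full gap between the orientations is 2 times the dye term. The dye terms given below are thus on a smaller scale than the ethanol changes beside them. The count of 10 uses the dye term. With the full gap it would be higher, with MET2 and MET30 among the genes added. Its share over all features was not counted. The deposited ratios also drift with the probe number, and each change is given with this trend removed where the call differs.

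More of these genes were called lower than higher in ethanol. Of the 36 genes 10 were called (27.8%, beside 18.1% of all features): 8 fell (22.2%, beside 10.4% of all features) and 2 rose (5.56%, beside 7.69%). The genes that fell were SAM3 and MMP1, which import S-adenosylmethionine and S-methylmethionine, MET14 of sulfate activation, SAH1 and SAM4 of the S-adenosylmethionine cycle, HOM6 of homoserine synthesis, and CYS4 and CYS3, which lead from homocysteine to cysteine. STR2, an enzyme of the opposite route from cysteine towards homocysteine, and MET30 rose. The median change of the 36 genes was −0.53, against 0.04 over all features, and 27 changes were negative and 9 positive. The split by sign over all features was not counted. On the arrays themselves, all 3 cultures with ethanol lay below all 3 without for 13 genes (36.1%, beside 14% of all features) and above for 3 (8.33%, beside 11.3%). With the trend removed, 8 fell and 2 rose again (beside 7.22% and 5.8% of all features) with a median of −0.43; of the 10 genes called as deposited 9 were called, SAM4 was not, and MET10 was added.

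**Figure D1:**
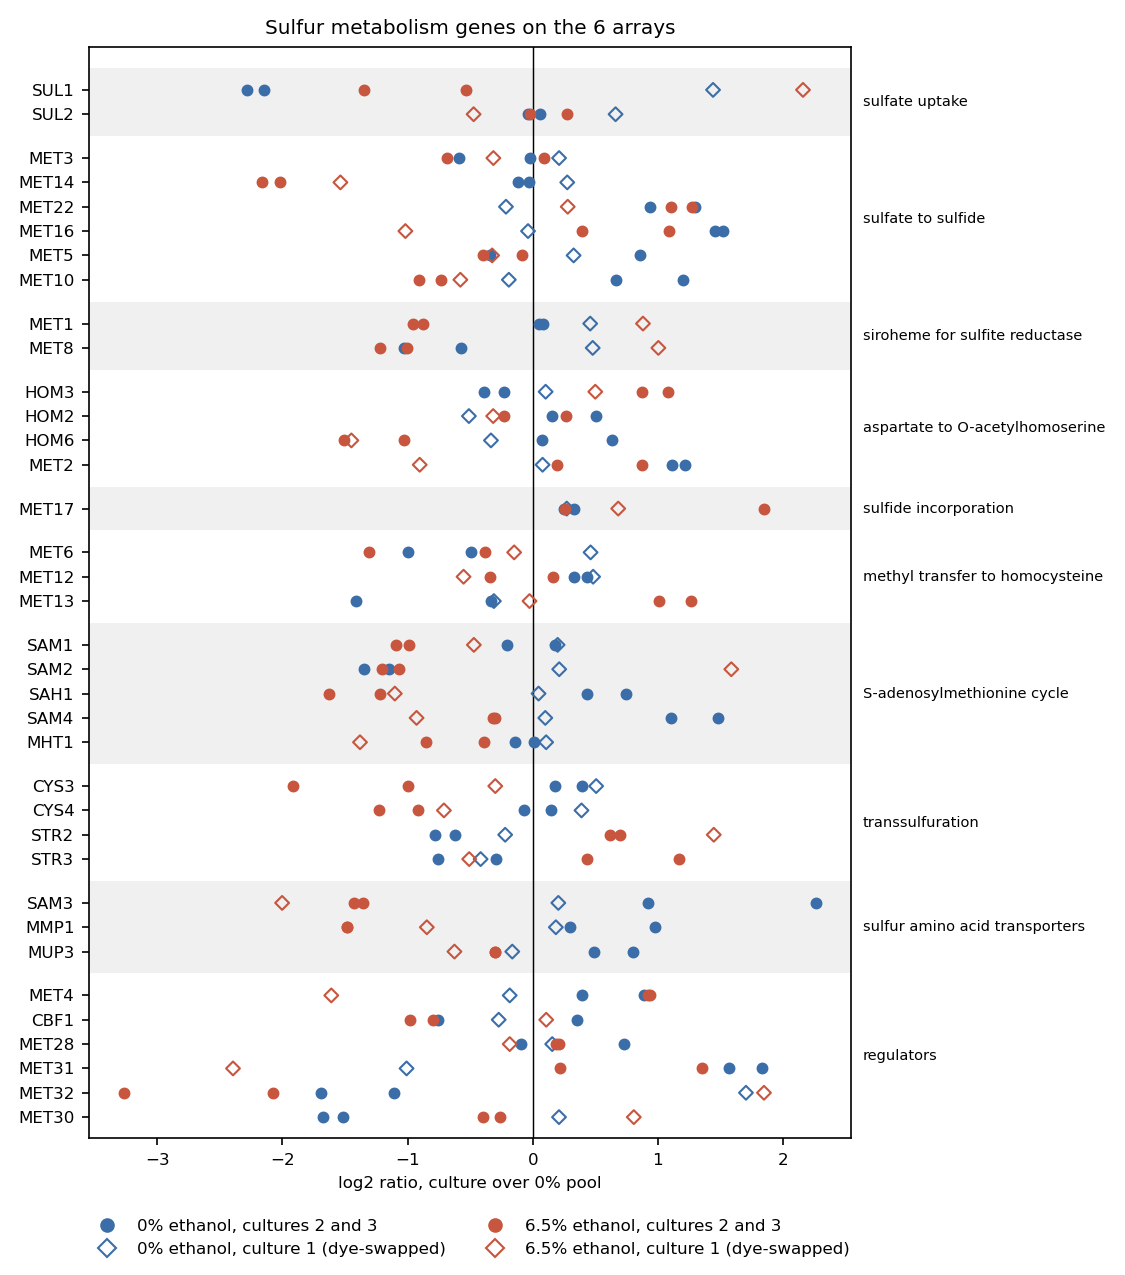
Log2 ratio of culture over pool (x axis) of each of the 36 genes (rows, grouped by role) on the 6 arrays; blue is 0% and red 6.5% ethanol, open diamonds are the dye-swapped arrays. For SAM3 the red points lie between −2.00 and −1.35 and the blue between 0.20 and 2.27, while for MET32 and SUL1 the diamonds stand apart from the circles of either colour.

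Calls depended on single arrays and on the scaling of the arrays. Without 6.5% culture 2 or without 6.5% culture 3 none of the 36 genes was called by limma, when 2 and 51 features were called in all. In these limma fits 16 and 16 of the 36 had an unadjusted p below 0.05, beside 1552 and 1534 of all 6345 features. Without 0% culture 2 the calls of MET14, SAH1, SAM3 and STR2 remained, when 485 features were called in all. Without 0% culture 3 the calls of CYS3, CYS4 and MET30 were lost, when 754 features were called in all. With all 6 arrays 1150 features were called. Leaving out either swapped array gives the same fit, since the dye term then absorbs the other. In that fit all 10 were called, and MET10, HOM3 and MET13 were added, when 1253 features were called in all. No called gene changed sign in any of the 6 fits with 1 array left out, though these fits share most arrays with the one that gave the calls. Without the dye term none of the 36 was called by limma (78 features in all), with an adjusted p of 0.0512 for MET14. In that limma fit the unadjusted p was below 0.05 for 13 of the 36 genes, beside 1119 of all features. With the replicate number as a block in place of the dye term, 5 genes were called lower and 1 higher (607 features in all). In that limma fit HOM6, CYS3, CYS4 and MET30 had adjusted p-values of 0.0518, 0.0656, 0.0597 and 0.0822. HOM6, CYS4 and MET30 also lost their calls when the arrays were scaled to equal spread (adjusted p = 0.126, 0.0605 and 0.151) and after quantile normalization (adjusted p = 0.0969, 0.0559 and 0.136). Scaling left 301 features called in all, and quantile normalization 484. CYS3 stood just past the threshold after scaling (adjusted p = 0.05003, not called) and called after quantile normalization (adjusted p = 0.0407).

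**Figure D2:**
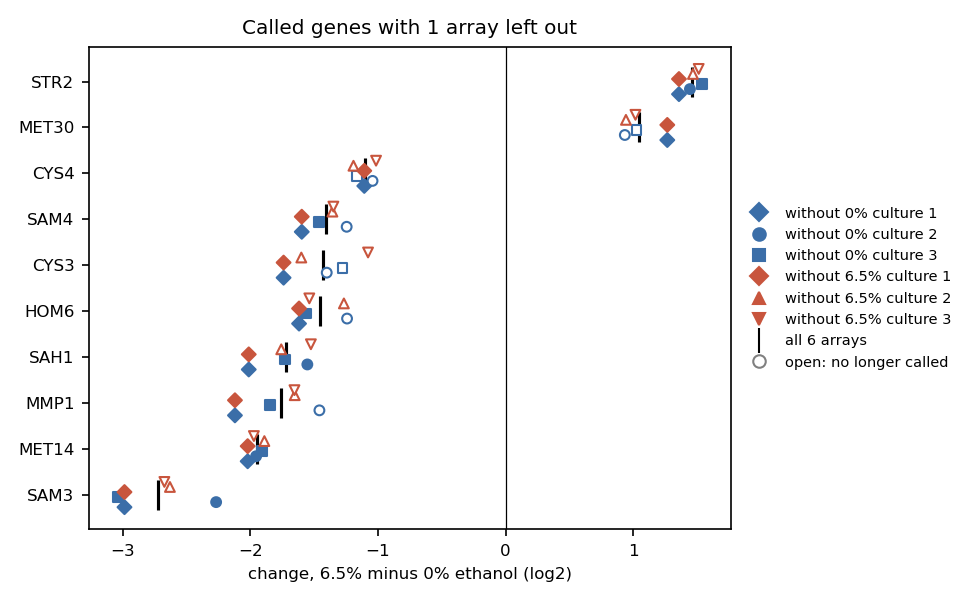
Change in ethanol (log2, x axis) of the 10 called genes from fits without 1 of the 6 arrays (coloured symbols, open where the gene was no longer called) and from all 6 arrays (black bars). SAM3 moves between −3.04 and −2.27 and STR2 between 1.36 and 1.54, and every symbol for the fits without 6.5% culture 2 or 3 is open.

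Of the 3 permeases for organic sulfur compounds 2 fell. SAM3, the high-affinity permease for S-adenosylmethionine, read 0.20, 2.27 and 0.92 in the 0% cultures and −2.00, −1.43 and −1.35 in the 6.5% cultures. All ethanol cultures lay below all others, and 0% culture 2 stood high. SAM3 fell by 2.73 ± 0.40, or 6.62-fold (95% interval −3.68 to −1.77, adjusted p = 0.0101), the lowest change among the 36 genes, and by 2.27 without 0% culture 2. MMP1, the S-methylmethionine permease, read 0.18, 0.98 and 0.30 without and −0.85, −1.48 and −1.48 with ethanol. Here too the groups did not overlap. MMP1 fell by 1.76 ± 0.34, or 3.38-fold (95% interval −2.56 to −0.95, adjusted p = 0.0190). MUP3, a low-affinity methionine permease, was at −0.79 ± 0.26 and missed the threshold (adjusted p = 0.0784), although its ethanol values of −0.63 to −0.30 lay below the −0.16 to 0.80 of the others.

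The sulfate transporters were not called. SUL1, a high-affinity sulfate permease, read 1.44, −2.28 and −2.15 in the 0% cultures and 2.16, −0.53 and −1.35 in the 6.5% cultures. The swapped arrays were high and the others low in each group, and within each orientation the ethanol value was the higher. Its change was 1.09 ± 0.31 (95% interval 0.35 to 1.83, adjusted p = 0.0552), or 0.63 with the trend removed (adjusted p = 0.281), beside a dye term of −1.69. SUL2, the second sulfate permease, was at −0.30 ± 0.33 (95% interval −1.09 to 0.49), with a difference of −1.13 on the swapped arrays and 0.12 on the others.

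Of the 6 genes of the route from sulfate to sulfide 1 fell, and their changes lay between −1.95 and 0.21. MET14, the kinase that makes PAPS, read 0.28, −0.11 and −0.03 without and −1.54, −2.17 and −2.02 with ethanol. Its 0% values lay close to the pool and its ethanol values far below. MET14 fell by 1.95 ± 0.24, or 3.87-fold (95% interval −2.52 to −1.39, adjusted p = 0.00783), with differences of −1.81 on the swapped and −2.02 on the other arrays. MET3, the ATP sulfurylase of the step before, was at −0.17 ± 0.33 (95% interval −0.95 to 0.61). The interval of MET3 lies wholly above that of MET14, and the difference between these neighbouring steps was not tested.

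MET10, a subunit of sulfite reductase, read −0.19, 1.20 and 0.66 without and −0.58, −0.91 and −0.73 with ethanol. The groups did not overlap, but the swapped arrays differed by only −0.39 and the others by −1.75. Its change of −1.30 ± 0.36 had an adjusted p of 0.0504, just past the threshold, and 0.0391 with the trend removed (−1.45). MET5, the other subunit, was at −0.55 ± 0.36 (95% interval −1.40 to 0.31). MET16, the PAPS reductase, was at −0.82 ± 0.28 (adjusted p = 0.0881, and 0.401 with the trend removed), beside a dye term of 0.82. MET22, a phosphatase that breaks down the nucleotide left over from PAPS, was at 0.21 ± 0.26 (95% interval −0.40 to 0.83). MET1 and MET8, which make the siroheme cofactor of sulfite reductase, were at −0.51 ± 0.34 and −0.03 ± 0.30, neither with a call. Both were higher in ethanol on the swapped arrays, by 0.42 and 0.52, and lower on the others, by −0.98 and −0.31.

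**Figure D3:**
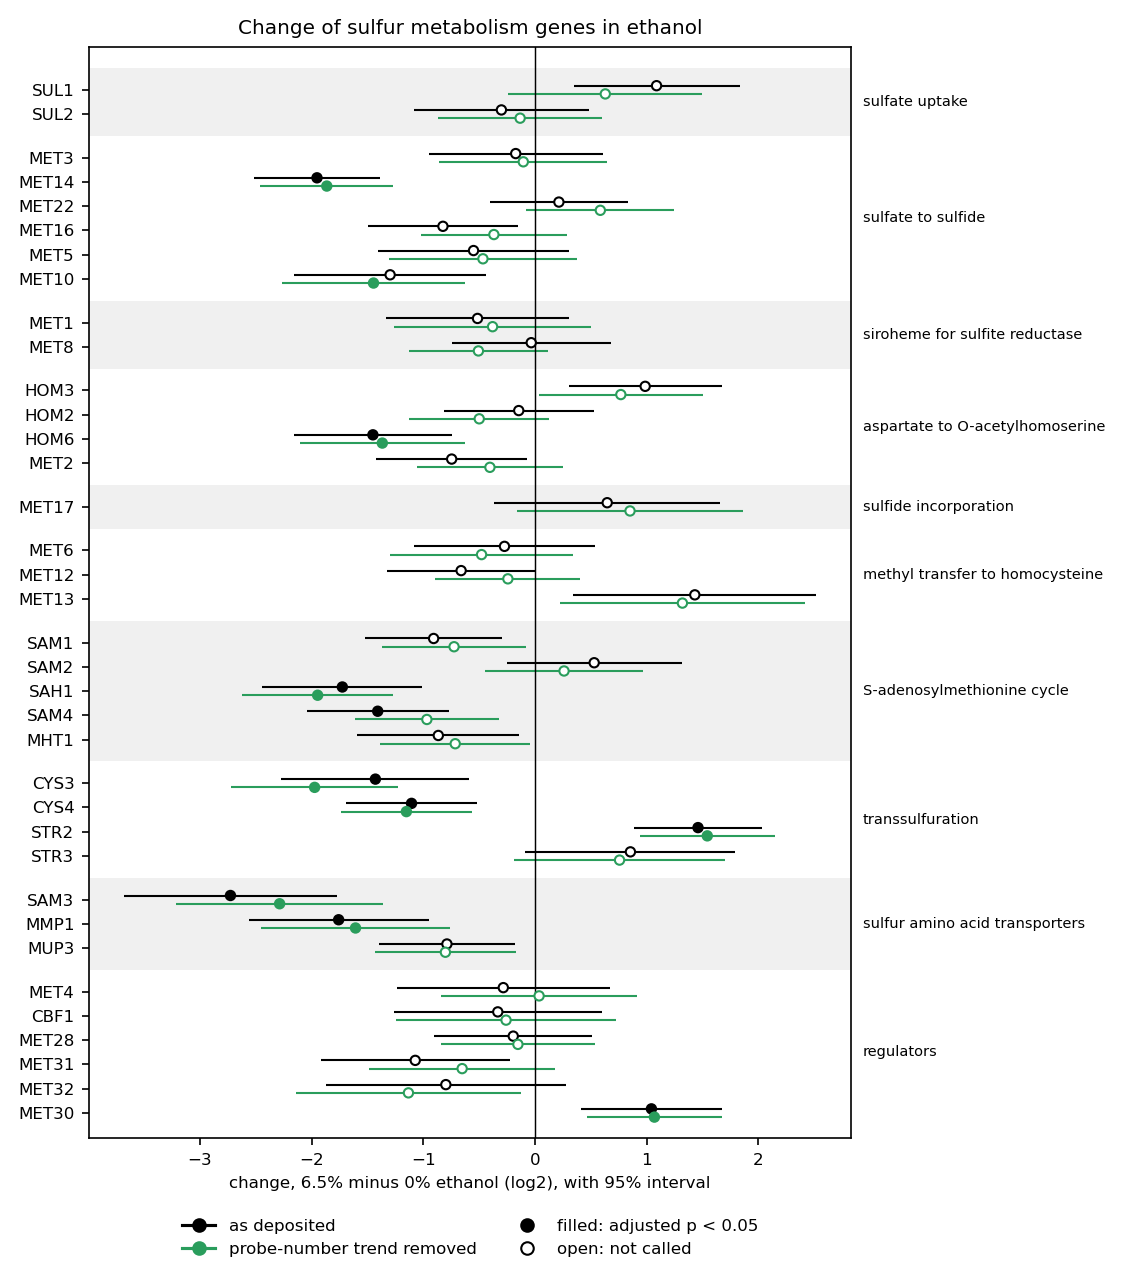
Change in ethanol (log2, x axis) of the 36 genes with its 95% interval, from the values as deposited (black) and with the probe-number trend removed (green); filled points have an adjusted p below 0.05. Filled points stand on both lines for 9 genes; SAM4 is filled as deposited alone and MET10 with the trend removed alone.

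Of the 4 genes that build the carbon chain 1 fell. HOM6, the homoserine dehydrogenase, read −0.33, 0.63 and 0.07 without and −1.45, −1.50 and −1.03 with ethanol. The highest ethanol value lay 0.70 log2 units below the lowest of the others. HOM6 fell by 1.45 ± 0.30, or 2.73-fold (95% interval −2.16 to −0.74, adjusted p = 0.0223). HOM3, the aspartate kinase that opens the route, was at 0.99 ± 0.29 with the groups apart (−0.39 to 0.10 against 0.50 to 1.08), and missed the threshold (adjusted p = 0.0579). HOM2, the semialdehyde dehydrogenase between them, was at −0.14 ± 0.28 (95% interval −0.82 to 0.53). The estimate for HOM3 was thus positive, without a call, and that for HOM6 negative, with intervals that do not meet. The difference between HOM3 and HOM6 was not tested. With the trend removed HOM3 was at 0.77 (adjusted p = 0.144). MET2, which acetylates homoserine, was at −0.75 ± 0.28 (adjusted p = 0.114) beside a dye term of 0.63. MET17, which joins sulfide to acetylhomoserine, read between 0.25 and 0.33 without ethanol and 0.68, 0.26 and 1.85 with it. Only 6.5% culture 3 stood far above the rest, and the change of 0.65 ± 0.43 was not called (95% interval −0.36 to 1.66).

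In the methylation of homocysteine MET13, the main methylenetetrahydrofolate reductase, read −0.31, −1.41 and −0.33 without and −0.03, 1.26 and 1.01 with ethanol. The groups did not overlap, but the swapped arrays differed by 0.28 and the others by 2.01. Its change was 1.43 ± 0.46 (95% interval 0.34 to 2.52) and missed the threshold (adjusted p = 0.0739). MET12, the minor isozyme, was at −0.66 ± 0.28 (adjusted p = 0.142). MET6, the methionine synthase that needs no cobalamin, was at −0.27 ± 0.34 (95% interval −1.08 to 0.54).

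Of the 5 genes of the S-adenosylmethionine cycle 2 fell. SAH1, the hydrolase that splits S-adenosylhomocysteine left by methylation, read 0.05, 0.74 and 0.43 without and −1.10, −1.22 and −1.63 with ethanol. The groups lay more than 1 log2 unit apart. SAH1 fell by 1.72 ± 0.30, or 3.31-fold (95% interval −2.44 to −1.01, adjusted p = 0.0150). SAM4, which methylates homocysteine with S-adenosylmethionine, read 0.10, 1.48 and 1.10 without and −0.93, −0.30 and −0.31 with ethanol. SAM4 fell by 1.41 ± 0.27, or 2.65-fold (adjusted p = 0.0179), but with the trend removed it was at −0.97 and not called (adjusted p = 0.0607). MHT1, which does the same with S-methylmethionine, was at −0.87 ± 0.31 and missed the threshold (adjusted p = 0.0954), although its ethanol values of −1.38 to −0.39 lay below all others.

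SAM1 and SAM2 code for closely similar S-adenosylmethionine synthetases, and how far their probes tell them apart was not tested. SAM1 was at −0.91 ± 0.26 with the groups apart and an adjusted p of 0.0530. SAM2 was at 0.53 ± 0.33 (95% interval −0.25 to 1.32), beside a dye term of −1.05. SAM2 was 1.37 higher in ethanol on the swapped arrays and 0.11 higher on the others.

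In the reference annotation of assembly R64, SAM4 lies next to SAM3 and MHT1 next to MMP1, so that in each case a permease gene adjoins the gene of a methyltransferase that uses its substrate. No other members were neighbours. The permease gene had the lower change in both places (−2.73 beside −1.41, and −1.76 beside −0.87). Neighbours in the genome also had successive probe numbers here, and their part in this likeness was not tested beyond removal of the trend, after which the changes were −2.29, −0.97, −1.61 and −0.71.

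In transsulfuration CYS4 and CYS3, the enzymes from homocysteine to cysteine, fell, and STR2, the first of the reverse route, rose. CYS4, cystathionine beta-synthase, read 0.39, 0.14 and −0.07 without and −0.71, −0.92 and −1.23 with ethanol. CYS4 fell by 1.10 ± 0.25, or 2.15-fold (95% interval −1.69 to −0.52, adjusted p = 0.0279), with nearly equal differences of −1.10 and −1.11 on the swapped and the other arrays. CYS3, cystathionine gamma-lyase, read 0.51, 0.17 and 0.39 without and −0.30, −0.999 and −1.91 with ethanol. The ethanol values were spread widely but all lay below the others. CYS3 fell by 1.43 ± 0.35, or 2.69-fold (adjusted p = 0.0362), and stood at −1.97 with the trend removed (adjusted p = 0.0150).

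STR2, cystathionine gamma-synthase, read −0.22, −0.78 and −0.62 without and 1.45, 0.70 and 0.62 with ethanol. Every ethanol culture lay above the pool and every other culture below it. STR2 rose by 1.46 ± 0.24 (adjusted p = 0.0134), which is 2.75-fold, with a 95% interval from 0.89 to 2.04. STR3, the cystathionine beta-lyase that completes the reverse route, was at 0.86 ± 0.40 (95% interval −0.08 to 1.80), without a call. STR3 differed by −0.09 on the swapped arrays and by 1.33 on the others.

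Among the 6 regulators MET30 rose, and the activator and its partners were not called. MET30 read 0.21, −1.68 and −1.52 without and 0.81, −0.26 and −0.39 with ethanol. The groups overlap, because the swapped arrays are high in each, but within each orientation the ethanol values were above the others, by 0.60 and 1.27. MET30 rose by 1.04 ± 0.27 (adjusted p = 0.0390), which is 2.06-fold, with a 95% interval from 0.41 to 1.68, beside a dye term of −0.74.

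MET4 read −0.18, 0.89 and 0.40 without and −1.61, 0.94 and 0.92 with ethanol. The swapped array of 6.5% culture 1 alone stood low, and the change of −0.28 ± 0.40 (95% interval −1.24 to 0.67) turned to 0.29 without either swapped array and to 0.04 with the trend removed. CBF1 read −0.27, −0.76 and 0.35 without and 0.11, −0.80 and −0.98 with ethanol, a change of −0.33 ± 0.39 (95% interval −1.26 to 0.60). MET28 read 0.16, 0.73 and −0.09 without and −0.18, 0.21 and 0.18 with ethanol, a change of −0.19 ± 0.30 (95% interval −0.90 to 0.51). The groups of all 3 genes overlap, and the intervals of MET4 and CBF1 reach below −1.

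MET31 and MET32, related zinc finger proteins, had the widest gaps between dye orientations among the regulators. MET31 read −1.01, 1.57 and 1.83 without and −2.39, 0.22 and 1.35 with ethanol. Its change of −1.07 ± 0.36 was not called (adjusted p = 0.0823), beside a dye term of 1.47. MET32 read 1.70, −1.11 and −1.69 without and 1.85, −2.07 and −3.27 with ethanol, a change of −0.80 ± 0.45 (95% interval −1.87 to 0.28) beside a dye term of −1.91. For both genes the dye term was larger in size than the ethanol change.

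The ethanol difference within each dye orientation had the same sign for 27 of the 36 genes. All 10 called genes were among them, which is no separate support, since the calls came from these same arrays. The share over all features was not counted. Of the 8 that fell, MET14 and CYS4 differed least between orientations, and MMP1, with −1.03 against −2.12, differed most.

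**Figure D4:**
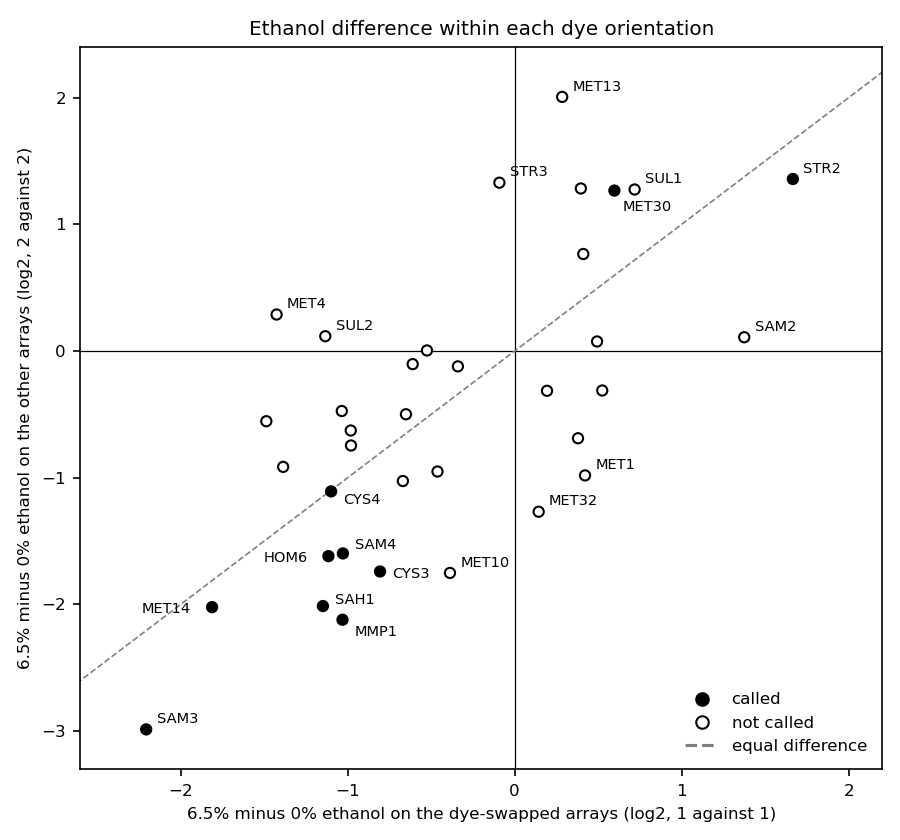
Each point is 1 of the 36 genes, with the 6.5% minus 0% difference (log2) on the dye-swapped arrays (x axis, 1 against 1) and on the other arrays (y axis, 2 against 2); filled points are called, and the dashed line marks equal differences. The filled points lie in the quadrants where both differences have the same sign, from SAM3 at −2.21 and −2.99 to STR2 at 1.67 and 1.36, and MET4 and SAM2 lie far from the line.

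Genes that border these pathways were described from 7 lists with 52 genes, all of which were measured. The lists were chosen with earlier results of these data known, so their shares of called genes are no test. Of the 52 genes 12 fell (23.1%, beside 10.4% of all features) and 5 rose (9.62%, beside 7.69%), with a median of −0.14. With the trend removed 10 fell and 4 rose (beside 7.22% and 5.8% of all features). The list of methionine salvage and polyamines held 6 of those that fell among its 11 genes. Polyamine synthesis takes its aminopropyl groups from decarboxylated S-adenosylmethionine, and the salvage cycle turns the methylthioadenosine left over back into methionine. MEU1, the phosphorylase that opens the salvage cycle, read 0.28, 1.52 and 0.63 without and −2.35, −0.98 and −1.27 with ethanol, and fell by 2.34 ± 0.32 (adjusted p = 0.00873). Its groups lay more than 1 log2 unit apart. SPE3, spermidine synthase, fell by 2.12 ± 0.36 (adjusted p = 0.0139) and SPE2, S-adenosylmethionine decarboxylase, by 1.83 ± 0.27 (adjusted p = 0.00940). MDE1 and MRI1, enzymes of the next salvage steps, fell by 1.42 ± 0.26 and 1.26 ± 0.32, and SPE1, ornithine decarboxylase, by 1.09 ± 0.30. MRI1 and SPE1 lost their calls once the trend was removed (changes of −0.81 and −0.97, adjusted p = 0.156 and 0.0704), which left 4 of the 6. SPE1 lost its call in every fit without 1 array. Of the remaining members of this list UTR4, ADI1, ARO8, ARO9 and SPE4 were not called, with changes from −0.94 to 1.66.

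Of 11 further transporters and enzymes of sulfur supply, MUP1 alone was called with the values as deposited. MUP1, the high-affinity methionine permease, read 0.15, −0.01 and 0.49 without and −0.65, −1.50 and −1.77 with ethanol, and fell by 1.52 ± 0.33 (adjusted p = 0.0258). Its ethanol values lay below all others, as did those of SAM3, MMP1 and MUP3. SSU1, which exports sulfite, was at 1.55 ± 0.43 and just missed the threshold (adjusted p = 0.05002), beside a dye term of 1.35. With the trend removed SSU1 was called higher, at 1.98 (adjusted p = 0.0238). ADO1, adenosine kinase, which removes the adenosine that SAH1 releases, fell by 1.67 ± 0.27 (adjusted p = 0.0126). In the same list of 7 folate and one-carbon genes MTD1, a cytosolic methylenetetrahydrofolate dehydrogenase, rose by 1.66 ± 0.27 (adjusted p = 0.0122). MIS1, a mitochondrial enzyme of folate interconversion, was at −0.93 ± 0.30 as deposited (adjusted p = 0.0772) and was called lower with the trend removed, at −1.42 (adjusted p = 0.0169).

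In the list of 5 aspartate and threonine genes AAT2, the aspartate aminotransferase that makes aspartate, fell by 1.43 ± 0.28 (adjusted p = 0.0189), and CHA1, which breaks down serine and threonine, rose by 3.95 ± 0.25. Of 8 glutathione genes IRC7, a beta-lyase of cysteine compounds, and DUG3, a subunit of a glutathione-degrading enzyme, fell by 1.28 ± 0.29 and 1.31 ± 0.26, and GSH1 and GSH2 of glutathione synthesis were at 0.19 ± 0.25 and −1.05 ± 0.32 without a call. DUG3 was no longer called with the trend removed (−0.98, adjusted p = 0.0548). Among 5 genes of methionine sulfoxide reduction and thioredoxin, MXR1, a methionine sulfoxide reductase, fell by 1.48 ± 0.36 and TRX2, a thioredoxin that can serve PAPS reduction, rose by 1.46 ± 0.29.

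Met30 works in a ubiquitin ligase with Skp1, Cdc53 and Hrt1 and with the conjugating enzyme Cdc34. CDC34 read 0.02, −0.19 and 0.01 without and 1.17, 1.33 and 1.23 with ethanol, and rose by 1.30 ± 0.24 (adjusted p = 0.0169). CDC53, the cullin, rose by 0.86 ± 0.24 (adjusted p = 0.0488). Neither call remained with the trend removed (changes of 0.93 and 0.45, adjusted p = 0.0638 and 0.260), and CDC53 lost its call in every fit without 1 array. SKP1 and HRT1 were at 0.44 ± 0.24 and 0.27 ± 0.26, and GCN4, the general activator of amino acid synthesis, at 0.15 ± 0.25 (95% interval −0.44 to 0.73). Of the 17 bordering genes called, none was called without 6.5% culture 2 and CHA1 alone without 6.5% culture 3. These fits called 2 and 51 of all features. Without 0% culture 2 and without 0% culture 3, 8 and 10 were called, when 485 and 754 features were called in all. Without either swapped array 15 were called, when 1253 features were called in all.

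**Figure D5:**
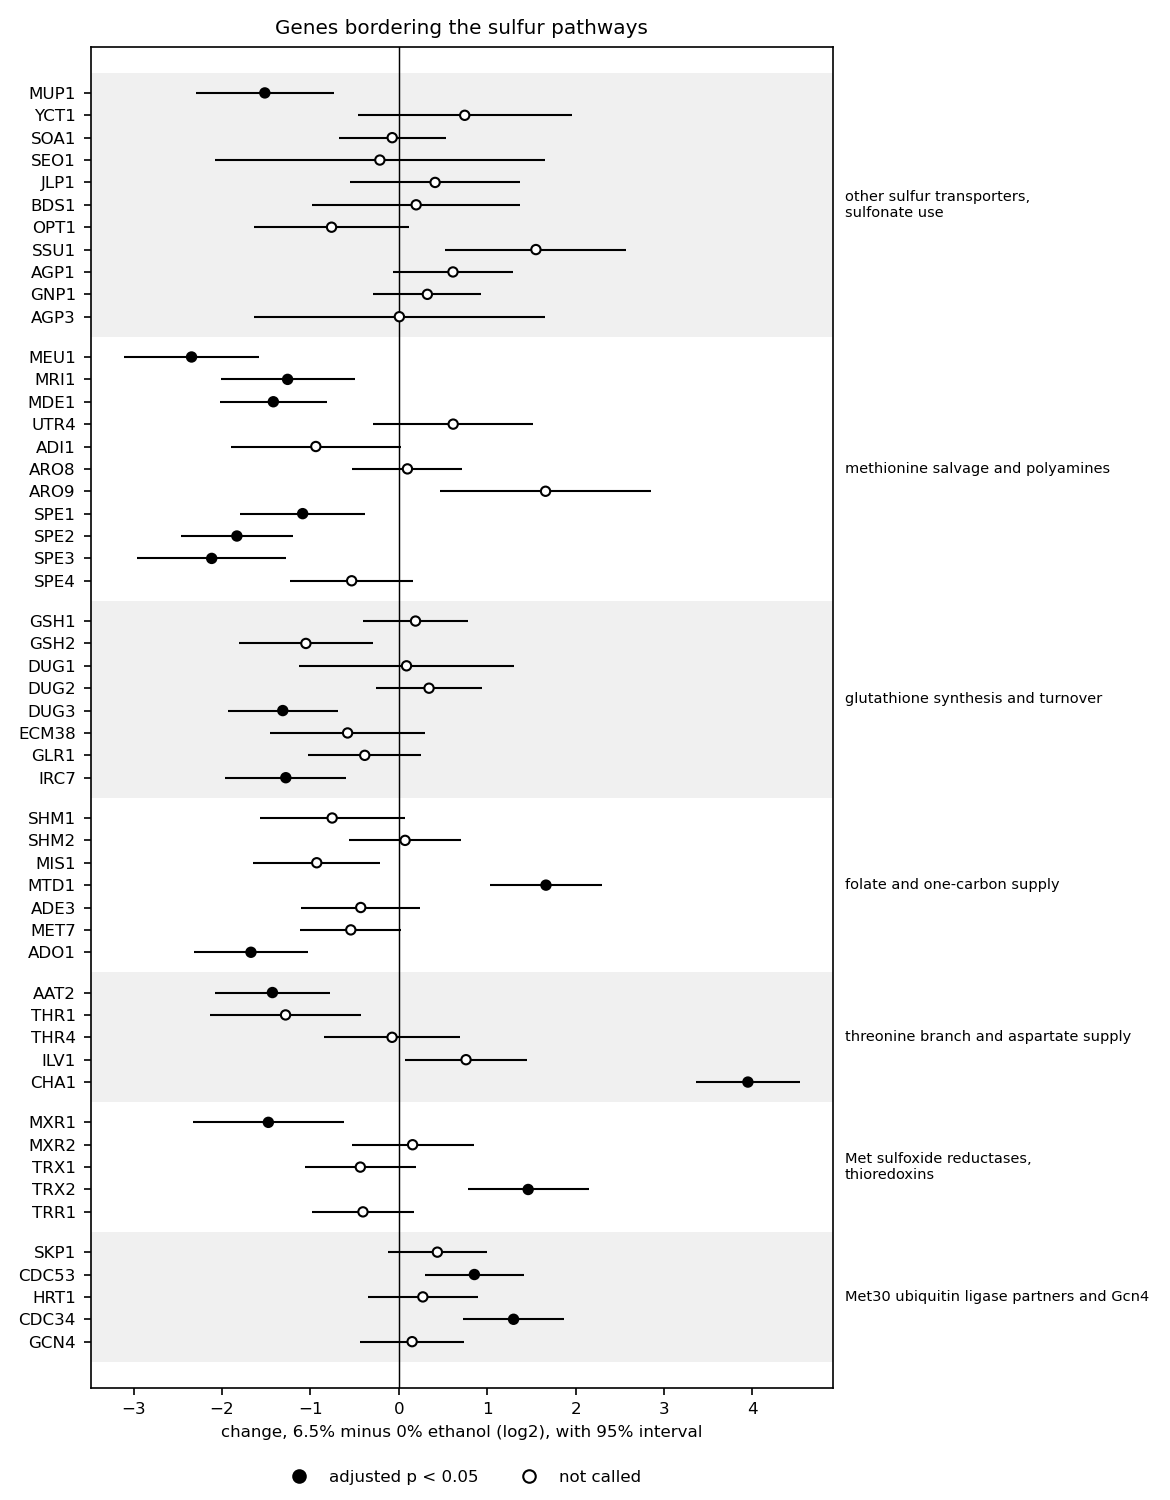
Change in ethanol (log2, x axis) with its 95% interval for 52 genes that border the sulfur pathways, grouped by list; filled points have an adjusted p below 0.05. The salvage and polyamine list holds 6 filled points, all below 0, from SPE1 at −1.09 to MEU1 at −2.34.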

How the data were processed

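The authors deposited 1 table of log2 ratios for 6368 probes on 6 two-colour arrays, without missing values. Scanner, background correction, normalization and ratio direction were not given in the sources used here. The log2 scale was read from the deposited values, which end at 6.64 on both sides, the log2 of 100; no value of the 36 genes was at that limit. Without intensities, the signal over background of a probe is unknown. The labels give RNA from equal numbers of cells, AlexaFluor dyes and separate cultures.

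Swapped arrays were multiplied by −1. Gene names came from the platform annotation and were brought up to date through the R64 gene table; probes of 1 gene were averaged, which left 6345 features. No sequence is shown, as the tables used here hold none. The model in limma 3.58.1 (R 4.3.3) held ethanol and dye orientation, with 3 residual degrees of freedom and p-values adjusted over all features. The model was tested on simulated data. In 20 simulations with 200 changed features each, it called 2.3% of changes of 1 log2 unit and 58.4% of changes of 2. Of its calls 3.83% were false. These shares do not carry over to the real table. There 1150 features were called, and the adjustment is stricter where fewer features change. The simulated noise was also independent between features and held no drift along the probe number. A gene without a call may still have changed. The trend along the probe number was removed by loess (span 0.4) on each deposited array.

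The groups share replicate numbers. Their deviations from the group means correlated at 0.70, 0.48 and 0.43, but replicate 1 is the swapped array in both groups, and a shared dye effect alone makes all 3 positive. The difference between replicates 2 and 3, which holds no dye effect, correlated between the groups at −0.04, so the numbers were not taken as pairs.

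The members, the bordering lists and the rule for naming genes were chosen with earlier results of these data known. Values on every array are given for members called, for those with a change of at least 1 log2 unit and for the regulators; bordering genes are described where called, and a few others were chosen after their values were seen.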

Additional observations from a re-analysis of the deposited data

How the results depend on the processing

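No alternative tried turned the sign of any of the 10 called genes, but these had been called on the same arrays. How many were called did change, and the cause was not tested. As deposited, 2 genes rose and 8 fell with a median change of −0.53. Without the dye term 0 rose and 0 fell (78 features called). Scaling to equal spread gave 1 and 5 (301 features) and quantile normalization 1 and 6 (484 features, median −0.63); HOM6, CYS4 and MET30 lost their calls in both, and CYS3 after scaling alone. With the replicate block in place of the dye term 1 rose and 5 fell (607 features). Removing the trend moved the median to −0.43. Without both swapped arrays 4 rose and 9 fell, beside 565 and 688 of all features. With 1 array left out, 0 to 4 rose, 0 to 9 fell, 2 to 1253 features were called and the median lay between −0.62 and −0.46. Settings were added after seeing the data, both with the trend removed: without 6.5% culture 2, 0 rose and 0 fell (0 features called by limma, median −0.35), and without 6.5% culture 3, 0 and 0 (23 features). One probe a gene and robust variances left 2 and 8.

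Signs turned for genes without a call and near 0. MET4 was at 0.0376 with the trend removed and 0.29 without the swapped arrays, HOM2 at 0.0615 after scaling and 0.0749 after quantile normalization. Without the swapped arrays SUL2 was at 0.12 and MET3 at 0.00455, and MET3 was at 0.0767 with the trend removed and without 6.5% culture 3. With 1 array left out, SUL2 lay between −0.50 and 0.12, MET3 between −0.44 and 0.00455, MET8 between −0.31 and 0.18, HOM2 between −0.31 and 0.0441, MET4 between −0.59 and 0.29, CBF1 between −0.69 and 0.0865 and MET28 between −0.45 and 0.0209.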
